A study of Rattus norvegicus with 9 samples.

Results

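Txnip, Angptl4, Nr1h3 and Bcl6, 4 of the 26249 genes and transcript units measured in this series, were followed through 9 mRNA-seq libraries of rat bone marrow mesenchymal stem cells (MSCs) and of cells induced from them. They were chosen because their transcripts were far more abundant in induced cells than in MSCs and because glucose, lipids or FoxO factors are known to control them. The induced-minus-MSC values below are therefore a description and carry no test, whereas the comparison of the 2 induced groups did not enter the choice and was tested. All 3 groups came from bone marrow MSCs at passage 3, and each group held 3 libraries. For the MSC and NPC groups the study's methods name 3 Sprague-Dawley rats, aged 4 weeks, as the source. The MSC group was left untreated. The NPC group was induced with EGF and bFGF for 3 days, and the NPC + IGF-1 group received IGF-1 beside EGF and bFGF over the same 3 days. By the methods of the study, cells of the NPC group were also moved to ultra-low attachment plates and NeuroCult NS-A medium with 20 ng/ml of each growth factor. In NPCs against MSCs the factors, the medium and suspension culture therefore cannot be told apart. Those methods do not describe the group with IGF-1, and the sources used here do not name the dose of IGF-1. Libraries were made with a stranded poly-A kit from 300 ng of total RNA. The widths of the deposited confidence intervals imply 37.2 to 48.9 M reads per library behind the FPKM values. For the MSC and NPC libraries the study reports more reads than this, both raw and mapped.

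All 4 genes couple transcription to the supply of nutrients. Txnip encodes an alpha-arrestin that binds thioredoxin and restrains glucose uptake, and its transcription follows intracellular glucose through the MondoA and ChREBP factors. Angptl4 encodes a secreted inhibitor of lipoprotein lipase that fatty acids induce through PPAR receptors, and that glucocorticoids and low oxygen also raise. Nr1h3 encodes the oxysterol receptor LXR-alpha, which switches on cholesterol export genes. Bcl6 encodes a zinc finger repressor best known from germinal centre B cells, which represses genes of lipid metabolism in liver and which FoxO factors activate when insulin or growth factor signalling is low.

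The cell labels were checked against the marker genes that could be named. Of 9 neural progenitor markers, 4 were named. Nes, which encodes nestin, was at 0.0534 to 0.152 FPKM in MSCs and 0.293 to 0.328 in NPCs (log2 fold change 0.90, SE 0.28), below the size needed for a call. Msi1 was at -0.31 (SE 0.35), Fabp7 was listed at 0 in all 9 libraries, and Prom1 fell by 2.55 (SE 0.27). FPKM are fragments normalised to transcript length and to the number of mapped fragments of the library. In the leukocyte list 3 of 10 markers were named, and their summed level was 0.231 to 0.502 FPKM in MSCs, 9.54 to 11.4 in NPCs and 8.97 to 14.4 with IGF-1. Nearly all of this was Cd68, a lysosomal protein that is not limited to leukocytes. Ptprc, the pan-leukocyte marker CD45, was between 0 and 0.0142 FPKM over the 9 libraries, and Aif1 was between 0 and 0.0403. In the adipocyte list 2 of 8 markers were named, Adipoq at no more than 0.0302 FPKM in any library and Cfd at 0 to 0.0326 in MSCs, 0.208 to 0.762 in NPCs and 0.645 to 2.93 with IGF-1. Among 5 B lymphocyte markers none could be named. In the mesenchymal stromal list 2 of 10 were named, of which Vcam1 rose by 4.67 (SE 0.36) and Cxcl12 fell by 2.93 (SE 0.57). The endothelial marker Vwf rose by 1.83 (SE 0.33), to at most 0.52 FPKM. Tagln, a smooth muscle and stromal contractile gene, went from 4240 to 4800 FPKM in MSCs to 32.8 to 138 in NPCs. The part of these shifts in the values of the 4 genes was not tested, and in bulk RNA fewer cells of a type and less RNA per cell cannot be told apart.

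Txnip lies on chromosome 2 from 218170012 to 218173900 on the + strand in the coordinates of the deposited files, a genome build that the sources used here do not name. Its gene ID is ENSRNOG00000021201, and its single annotated transcript has 8 exons and 2830 bases. Its level, summed over isoforms, was 1.8, 2.07 and 1.96 FPKM in the MSC libraries 1 to 3. In the NPC libraries it was 385, 273 and 111 FPKM. In the libraries with IGF-1 it was 236, 366 and 257 FPKM. MSCs thus sat within a narrow band, and the induced libraries lay far above it but apart from each other, NPC library 3 being the lowest of the 6. The mean was 1.94 ± 0.134 FPKM in MSCs, 256 ± 138 in NPCs and 286 ± 69.5 with IGF-1 (SD, n = 3 each). On the scale of log2(FPKM + 0.1), after the libraries were scaled to each other, NPCs exceeded MSCs by 6.73 (SE 0.40) and the cells with IGF-1 exceeded MSCs by 7.02 (SE 0.38), which is 106-fold and 130-fold. The 2 differences share the MSC libraries. Txnip was the 81st most abundant of 14197 ranked genes in NPC library 1 and the 374th in NPC library 3, against places 9357 to 9847 in MSCs. The MSC values rest on about 166 to 221 reads for the annotated transcript and the induced values on 14611 to 44586.

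Angptl4 (ENSRNOG00000007545) lies on chromosome 7 from 18805416 to 18811643 on the - strand, and its annotated transcript has 7 exons and 1844 bases. Its level was 0.508, 0.622 and 0.715 FPKM in the MSC libraries 1 to 3. It was 72.9, 89.5 and 187 FPKM in the NPC libraries. With IGF-1 it was 68.5, 64.2 and 86.7 FPKM. NPC library 3, the lowest induced library for Txnip, was the highest for Angptl4, and the other 5 induced libraries lay close together. The mean was 0.615 ± 0.104 FPKM in MSCs, 117 ± 61.9 in NPCs and 73.1 ± 12.0 with IGF-1 (SD, n = 3 each). The log2 difference from MSCs was 7.17 (SE 0.36) in NPCs and 6.60 (SE 0.33) with IGF-1, or 144-fold and 96.9-fold. Only 39 to 73 reads stand behind each MSC value. In NPC library 1 the annotated transcript held 42.4 FPKM, or 58.2% of the sum. The other 30.5 FPKM came from an unannotated isoform of 5 exons and 1200 bases, whose first exon of 37 bases begins 2712 bases into the gene, between the annotated exons 3 and 4. In the other 8 libraries the annotated transcript was the only isoform assembled.

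Nr1h3 (ENSRNOG00000013172) lies on chromosome 3 from 86712883 to 86721503 on the - strand, and its annotated transcript has 9 exons and 1635 bases. Its level was 0.93, 1.28 and 0.721 FPKM in the MSC libraries 1 to 3. It was 12.8, 17.9 and 13.5 FPKM in the NPC libraries. With IGF-1 it was 15.1, 18.5 and 21.2 FPKM. The induced libraries stayed within a narrow range, and none came near the MSC values. The mean was 0.977 ± 0.282 FPKM in MSCs, 14.8 ± 2.77 in NPCs and 18.3 ± 3.07 with IGF-1 (SD, n = 3 each). The log2 difference from MSCs was 3.74 (SE 0.22) in NPCs and 4.03 (SE 0.20) with IGF-1, or 13.3-fold and 16.4-fold. The whole sum came from the annotated transcript in all 9 libraries.

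Bcl6 (ENSRNOG00000001843) lies on chromosome 11 from 80454014 to 80477192 on the - strand, and its annotated transcript has 10 exons and 3389 bases. Its level was 4.90, 4.34 and 3.95 FPKM in the MSC libraries 1 to 3. It was 22.2, 21.0 and 17.5 FPKM in the NPC libraries. With IGF-1 it was 16.6, 22.1 and 24.6 FPKM. Bcl6 was thus the only one of the 4 that already stood near the middle of all genes in MSCs, at places 7427 to 7734 of 14197, and its shift was the smallest. The mean was 4.40 ± 0.480 FPKM in MSCs, 20.2 ± 2.46 in NPCs and 21.1 ± 4.05 with IGF-1 (SD, n = 3 each). The log2 difference from MSCs was 2.10 (SE 0.15) in NPCs and 2.14 (SE 0.16) with IGF-1, or 4.3-fold and 4.41-fold.

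**Figure D1:**
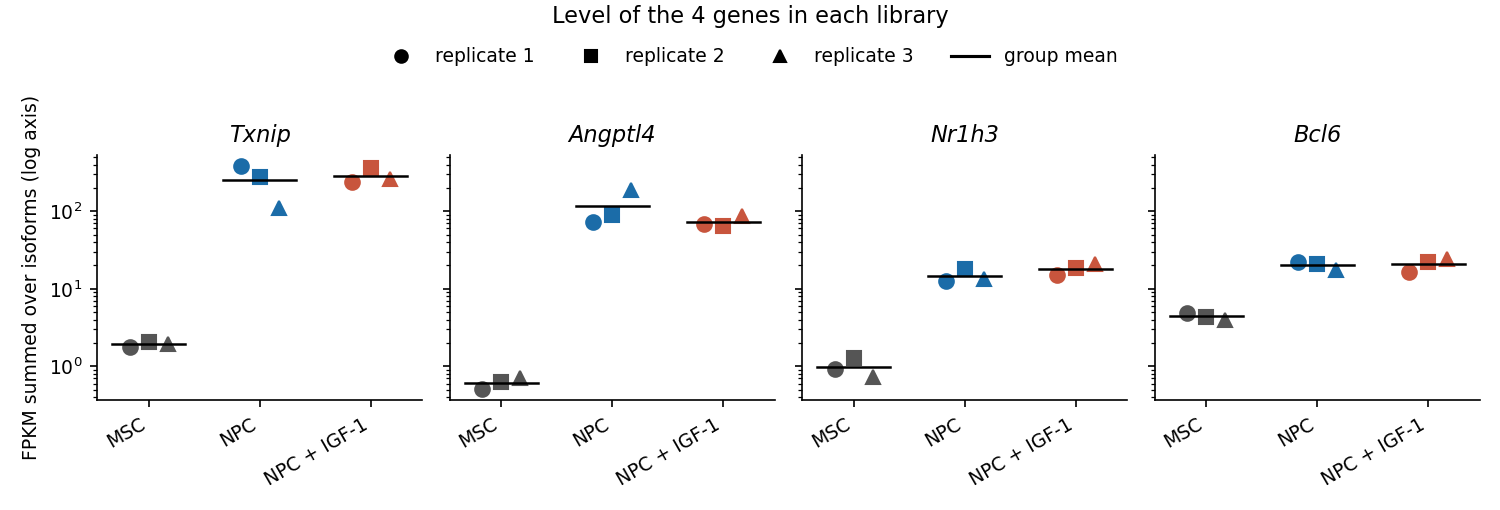
FPKM of Txnip, Angptl4, Nr1h3 and Bcl6 (log axis), summed over isoforms, in each of the 9 libraries, with 1 symbol per replicate number and a line at the group mean. All 6 induced libraries sit above all 3 MSC libraries for each gene, and NPC library 3 is the lowest induced library for Txnip (111) and the highest for Angptl4 (187).

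For each of the 4 genes all 3 NPC libraries exceeded all 3 MSC libraries, as they did for 27.1% of the 13658 genes tested in that comparison, and so did all 3 libraries with IGF-1, as for 30.7% of 14197. Since the genes were picked for this difference, nothing is read from it. By the size of the log2 difference in NPCs, Angptl4 stood at place 8 of 13658, Txnip at 11, Nr1h3 at 105 and Bcl6 at 454. FPKM are per length and allow the 4 levels to be ordered within a group. In MSCs the order was Bcl6, Txnip, Nr1h3 and Angptl4, and neighbours did not overlap, although the lowest Nr1h3 library (0.721) and the highest Angptl4 library (0.715) were next to each other. In NPCs the order of the means was Txnip, Angptl4, Bcl6 and Nr1h3. There Txnip and Angptl4 overlapped, as did Bcl6 and Nr1h3. With IGF-1 the order was the same, and of its neighbours only Bcl6 and Nr1h3 overlapped.

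The comparison of NPC + IGF-1 with NPC asks whether IGF-1, an activator of the kinase pathway that keeps FoxO factors out of the nucleus, shifted the 4 genes. None of them passed the test, which was limma across 14197 genes with Benjamini-Hochberg adjustment. Txnip differed by 0.29 on the log2 scale (SE 0.38, 95% interval -0.57 to 1.15), with 286 against 256 FPKM. Angptl4 differed by -0.58 (SE 0.33, interval -1.33 to 0.17), with 73.1 against 117 FPKM. Nr1h3 differed by 0.29 (SE 0.20, interval -0.17 to 0.75), with 18.3 against 14.8 FPKM, and Bcl6 by 0.03 (SE 0.16, interval -0.33 to 0.40), with 21.1 against 20.2 FPKM. The adjusted p was 1 for all 4 in limma. The groups overlapped for each gene, and they did not overlap for 9.47% of all genes. The intervals leave room for a change of Txnip to 2.22-fold upward and of Angptl4 to 0.399-fold downward, but for Bcl6 only for 0.793- to 1.32-fold. For Txnip and Bcl6 the direction changed with single libraries. Without NPC library 3 Txnip was at -0.20 and Bcl6 at -0.05, and without NPC + IGF-1 library 3 Bcl6 was at -0.09. Without NPC library 3 the Angptl4 difference shrank to -0.15, and without NPC library 1 it was -0.85, with Txnip then at 0.68.

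Across all genes 3 of 14197 (0.0211%) were called in that comparison by limma, where a call needed an adjusted p no higher than 0.05 and a change of 1 or more on the log2 scale, and 633 (4.46%) had an unadjusted p under 0.05. The 3 have no symbol in the sources used here, and each is listed at 0 in every library of 1 induced group. ENSRNOG00000016033 was at 1.22 to 1.42 FPKM with IGF-1 and at 0 in NPCs. The transcripts ENSRNOT00000014517 and ENSRNOT00000060335 were at 5.55 to 10.6 and at 6.32 to 6.73 FPKM in NPCs and at 0 with IGF-1. These were named after their values were seen.

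Within the NPC group, Txnip and Angptl4 deviated from their means in opposite directions. In NPC library 1 Txnip was 0.77 above its group mean on the log2 scale and Angptl4 was 0.54 below, in NPC library 2 the values were 0.22 above and 0.30 below, and in NPC library 3 Txnip was 0.99 below and Angptl4 0.85 above. With IGF-1 the 2 genes lay on opposite sides of the mean in libraries 2 and 3 and on the same side in library 1. In the MSC libraries both stayed within 0.32 of their means and, once the libraries were scaled to each other, both were lowest in library 1 and highest in library 3. The ratio of Txnip to Angptl4 FPKM was 5.28, 3.05 and 0.593 in NPC libraries 1 to 3, against 2.74 to 3.55 in MSCs and 2.96 to 5.69 with IGF-1. NPC library 3 was therefore the only one of the 9 with more Angptl4 than Txnip. The deviations of the 2 genes over the 9 libraries had Pearson's r = -0.81. Those of Txnip and Bcl6 had 0.51, those of Nr1h3 and Bcl6 had 0.33 and those of Angptl4 and Bcl6 had -0.30. Nr1h3 had 0.02 with Txnip and -0.03 with Angptl4. These coefficients describe 9 points from 3 groups centred on their own means. NPC library 3 also held the lowest Apoe level of the 6 induced libraries (277 FPKM, against 592 to 1570 in the others) and the highest Tagln level (138 against 27.4 to 110), and what these shared deviations reflect was not tested.

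**Figure D2:**
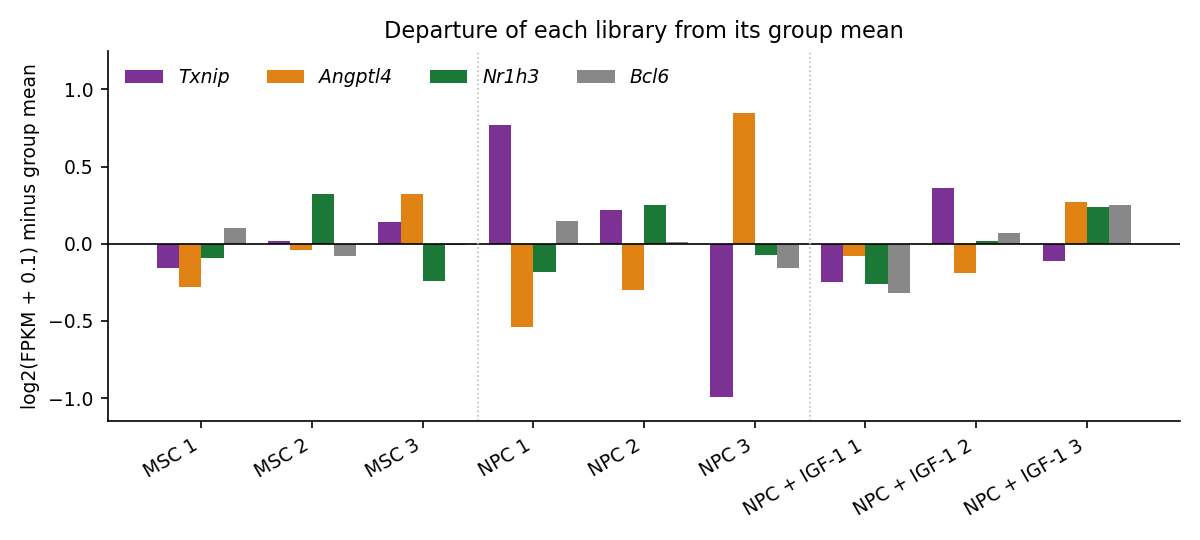
log2(FPKM + 0.1) of the 4 genes in each library minus the mean of its group, for 9 libraries. In the NPC group Txnip goes from 0.77 in library 1 to -0.99 in library 3 and Angptl4 from -0.54 to 0.85, while Nr1h3 and Bcl6 stay within 0.32 of their group means in all 9 libraries.

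The genes whose levels were most like each of the 4 were sought among 11029 genes with a mean of at least 1 FPKM, of which 1300 had a symbol. Over the 9 libraries r exceeded 0.9 for 938 genes with Txnip (8.50% of those compared), 847 with Angptl4, 933 with Nr1h3 and 931 with Bcl6, and most of this likeness is the shared step from MSCs to induced cells. Among named genes Txnip was most like Evpl (r = 0.994) and Il16 (0.993), and Angptl4 was most like Ces1a (0.995) and Pcdhga10 (0.994). Nr1h3 was most like Tpst1, Frzb and Mmp10 (0.996 each), the last of which encodes a matrix metalloproteinase. Bcl6 was most like Slco2b1 and Enpp3 (0.995 each). With the group means removed, the named gene nearest to Txnip was Ca12 (0.978), a carbonic anhydrase, followed by Ppfibp2. Those nearest to Angptl4 were Mthfd2 (0.982), a mitochondrial folate enzyme, and Aars (0.981), an alanyl-tRNA synthetase, with Chac1 and Cpt1a also among the first 5. Mthfd2 had 11.2, 12.6 and 27.8 FPKM in NPC libraries 1 to 3, and Cpt1a, the carnitine palmitoyltransferase that admits fatty acids to mitochondria, had 17.0, 23.4 and 35.0. Both thus follow the order of Angptl4 in that group. Canx was nearest to Nr1h3 (0.961) and Arrb1 to Bcl6 (0.962). All of these describe 9 libraries that share their preparation, and the genes named were the highest of many.

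The promoters of 3 of the 4 genes are in the RefSeq promoter table of the GRCr8 assembly, which differs from the build of the files, and Txnip has no entry in it. They are shown because the deposited files place unannotated transcripts within 3 kb upstream of the starts annotated there, in induced cells. Whether the starts of the 2 builds match was not tested. For Bcl6 the nearest such transcript ended at -356 from the start in the files, outside a window of 250 bases. Bcl6 is on the + strand of GRCr8 and on the - strand of the files, and of 6 named genes within 3 Mb of it in the files, 5 were likewise on opposite strands in the 2 builds. Each window runs 5' to 3' on the gene's strand in GRCr8 from 250 bases before the start to 50 bases after it. Capitals mark matches to the motifs searched.
Angptl4, chr7:15258632-15258931, - strand: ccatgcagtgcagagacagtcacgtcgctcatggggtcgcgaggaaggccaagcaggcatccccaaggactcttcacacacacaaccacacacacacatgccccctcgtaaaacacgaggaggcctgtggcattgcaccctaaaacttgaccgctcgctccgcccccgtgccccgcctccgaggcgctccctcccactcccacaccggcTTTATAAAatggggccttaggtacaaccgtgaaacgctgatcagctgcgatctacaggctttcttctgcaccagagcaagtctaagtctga
Nr1h3, chr3:97623180-97623479, - strand: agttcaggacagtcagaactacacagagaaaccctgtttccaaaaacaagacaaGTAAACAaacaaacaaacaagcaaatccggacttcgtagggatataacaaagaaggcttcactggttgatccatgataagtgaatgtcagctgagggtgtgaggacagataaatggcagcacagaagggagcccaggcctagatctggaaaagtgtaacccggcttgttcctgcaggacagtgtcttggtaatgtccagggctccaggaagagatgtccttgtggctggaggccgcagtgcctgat
Bcl6, chr11:90358503-90358802, + strand: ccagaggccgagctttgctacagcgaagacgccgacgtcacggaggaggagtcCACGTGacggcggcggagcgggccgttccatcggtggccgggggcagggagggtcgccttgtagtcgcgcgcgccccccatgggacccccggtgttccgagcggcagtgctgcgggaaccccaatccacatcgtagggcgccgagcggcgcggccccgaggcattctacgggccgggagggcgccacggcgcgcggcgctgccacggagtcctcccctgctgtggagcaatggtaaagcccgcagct
The motifs searched, on both strands, were the E-box CACGTG, the FoxO site GTAAACA, the nuclear receptor core site AGGTCA, the TATA box TATAAA and the glucocorticoid receptor core site AGAACA. The Angptl4 window held TATAAA at position -39, with an overlapping match on the other strand at -41, as 14.2% of all 33469 promoters in the table held it. The Nr1h3 window held GTAAACA at position -196, a motif found in 3.78% of promoters. The Bcl6 window held CACGTG at position -197 from the RefSeq start, found in 6.42%. Neither AGGTCA (16.2% of promoters) nor AGAACA (20.7%) was in any of the 3 windows. Such matches are letters in a window and describe no binding in these cells.

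The transcript models of Bcl6 also differed between the groups, and whether this follows from its higher level was not tested. Its first intron, of 9770 bases, was tiled by unannotated single-exon transcripts on the strand of Bcl6. In MSC libraries 1 to 3 they covered 14, 10.8 and 17.6% of the intron, in short blocks. In NPC libraries they covered 70.3, 44.9 and 76.5%. With IGF-1 they covered 69.7, 76.5 and 78.8%. The induced libraries thus lay well above the MSC libraries, and NPC library 2 was the lowest of them. The blocks shared their limits across induced libraries, with a first block between 150 and 541 bases from the start and a long block that began 1598 to 1629 bases from it in all 6. In 4 of the 6 this long block ended between 5053 and 5085 bases from the start. Over all introns of Bcl6 the covered share was 5.35 to 8.69% in MSCs and 23.7 to 38.9% in induced cells. Among 12209 genes with introns, a median of 0 to 0.457% was covered, and Bcl6 exceeded 93.4 to 97.4% of the genes in MSCs and 95.7 to 99.0% in induced cells. The share of genes with any covered intron base was higher in each induced library than in each MSC library, at 43.9 to 53.7% of genes against 17.7 to 25.8% in MSCs. The induced libraries also held 64618 to 90998 unannotated transcripts each, against 28763 to 36570 in MSCs. These values were chosen after they were seen, and whether the intron signal is unspliced Bcl6 RNA or separate transcripts was not tested.

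In 2 induced libraries the assembly also joined a new first exon within intron 1 to exon 2 of Bcl6. In NPC library 1 this exon had 759 bases and lay 7757 to 8515 bases from the annotated start, and the isoform of 10 exons held 6.57 FPKM, or 29.6% of the Bcl6 sum. In NPC + IGF-1 library 3 it had 1431 bases and lay 5154 to 6584 bases from the start, and the isoform held 4.83 FPKM, or 19.7% of the sum. The 2 exons do not overlap, and no other library held such an isoform. Apart from these isoforms, Bcl6 had 15.6 and 19.7 FPKM from the annotated transcript in these 2 libraries.

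**Figure D3:**
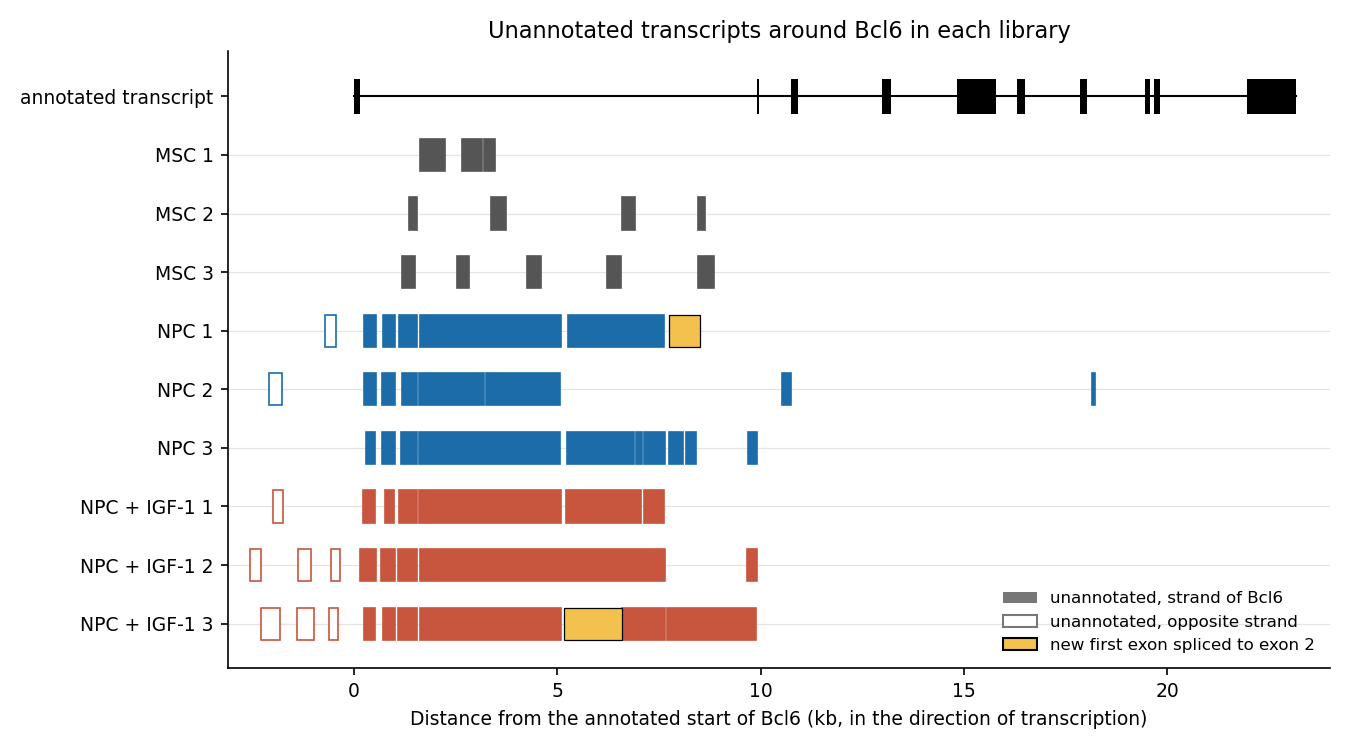
Unannotated transcripts within Bcl6 introns and 3 kb upstream in each library, by distance from the annotated start (kb, in the direction of transcription), with the annotated exons as black boxes on top. Filled bars are on the strand of Bcl6, open bars on the opposite strand and yellow bars are new first exons. Intron 1 is covered at 10.8 to 17.6% in MSCs and 44.9 to 78.8% in induced libraries.

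Beyond the isoforms counted in their sums, Txnip and Angptl4 held no unannotated transcript in their introns on either strand in any library, and Nr1h3 held 1 block of 129 bases, in NPC library 3. Txnip has 1059 intron bases, Angptl4 4384 and Nr1h3 6986, against 19790 in Bcl6. In MSC libraries 2 and 3, 14 and 19.6% of the Txnip sum came from short isoforms of its last 4 and last 3 exons, whose first exon began within the intron before it.

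The other genes of the pathways were taken from 12 lists, and 50 of their genes could be named. Ca12, which the list of hypoxia-responsive genes spells Car12, was not matched and is not counted. Of the 50, 22 were named through a table ordered by gene ID. The other 28 came from tables of genes that the study selected as changed on these samples. Counts over these lists are therefore not independent evidence of a direction. Of 47 genes tested in NPCs against MSCs, 22 rose, 8 fell and 17 did not pass, where 11.3% of 13658 genes were called higher and 9.96% lower. Among the genes named by gene ID order alone, 5 of 21 rose and 1 fell. With annotated transcripts alone the number that rose went from 22 to 14. The same thresholds in limma apply here and below, and all log2 values below are differences of NPCs from MSCs.

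Around Nr1h3, 5 of 28 LXR partners and targets were named, all of them targets. Of these 4 rose and none fell, with a median of 3.34 against 0.02 over all genes, of which 11.3% were called higher. Among those named by gene ID order alone, 2 of 2 rose, with a median of 2.75. The others came from the study's tables of changed genes. Abcg1, the sterol exporter to lipoproteins, was at 0.847 to 1.21 FPKM in MSCs and 18.9 to 24.3 in NPCs (log2 4.20, SE 0.22, limma adjusted p = 3.25e-05). Abca1, the exporter to apolipoprotein A-I, rose by 3.34 (SE 0.18), Apoe, the apolipoprotein E gene, by 4.49 (SE 0.53), and Smpdl3a by 1.29 (SE 0.22). Apoe varied among NPC libraries, at 842, 1160 and 277 FPKM. Pltp, a phospholipid transfer protein, did not pass at 0.69 (SE 0.27), but did under quantile normalisation (1.09). The rise of Abca1 was not called with annotated transcripts alone (2.79, limma adjusted p = 0.558).

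Around Angptl4, Angptl8, which encodes its partner in the control of lipoprotein lipase, was at 0.359 to 0.713 FPKM in MSCs, 17.3 to 18.0 in NPCs and 24.8, 78.9 and 76.6 with IGF-1. It rose by 4.80 in NPCs (SE 0.22, limma adjusted p = 1.74e-05). In all 6 induced libraries the annotated Angptl8 transcript of 597 bases was listed at 0, and the whole level came from an unannotated transcript of 850 to 858 bases with 4 exons and the same start, whose last exon had 281 to 289 bases in place of 28. With annotated transcripts alone the difference was therefore -2.56. Between the induced groups Angptl8 differed by 1.57 (limma adjusted p = 0.843), higher with IGF-1 in 3 of 3 libraries, where 9.47% of all genes did not overlap. Lmf1, which matures lipases, was at -0.19 (SE 0.37), and at 0.09 without NPC library 1. Of 39 PPAR receptors, targets and lipid droplet genes 5 were named. Of these 2 rose and 2 fell, where 11.3% of all genes were called higher and 9.96% lower. Only Ppard, which was not called, was named by gene ID order, and the others came from the study's tables of changed genes. Pdk4, a pyruvate dehydrogenase kinase, rose by 3.49 (SE 0.26) and Cpt1a by 1.79 (SE 0.30). Fabp3 and Fabp5, fatty acid carriers, fell by 3.50 and fell by 2.71, in that order, and the receptor Ppard was at 0.22 (SE 0.29).

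Around Txnip, 1 of 6 named genes of the thioredoxin system and alpha-arrestins rose and 1 fell, against 11.3% and 9.96% of all genes. Among those named by gene ID order alone, 0 of 5 rose and 1 fell. Arrdc2, another alpha-arrestin, was at 0.248 to 0.492 FPKM in MSCs and 2.03 to 4.17 in NPCs and rose by 2.80 (SE 0.32). With annotated transcripts alone it was not called (1.01, limma adjusted p = 0.56). The peroxiredoxin Prdx6 fell by 1.11 (SE 0.17), and was not called without MSC library 3 (-0.96), under quantile normalisation (-0.73) or with annotated transcripts alone (-0.99). Prdx2 (0.08, and -0.05 without MSC library 3), Prdx4 (-0.58) and Txnrd2 (2.16, SE 2.10) did not pass. Txnrd2, a mitochondrial thioredoxin reductase, was listed at 0 in 4 libraries spread over all groups. Of 15 glucose-sensing factors and their targets only Klf10 was named, which rose by 1.12. Klf10 was not called without MSC library 1 (0.98), with a pseudocount of 1 (0.99) or with annotated transcripts alone (2.47, limma adjusted p = 0.357). Of 3 named genes of glucose uptake and glycolysis, Ldhb, a lactate dehydrogenase subunit, fell by 1.88 (SE 0.23), Aldoc rose by 1.16 and Pfkl was at 0.95. The call of Aldoc was lost without MSC library 1, MSC library 3, NPC library 1 or NPC library 2 (limma adjusted p = 0.0734, 0.093, 0.0878 and 0.077) and with annotated transcripts alone (0.0991), and that of Pfkl was gained without MSC library 1 (1.13), NPC library 2 (1.03) or NPC library 3 (1.02), without rescaling (1.02) and under quantile normalisation (1.11).

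Around Bcl6 and its control by FoxO, 3 of 7 named FoxO targets rose and none fell, with a median of 0.98. Named by gene ID order alone, 0 of 4 were called, with a median of 0.57, and the 3 that rose came from the study's tables of changed genes. Bcl2l11, which encodes the death-promoting protein Bim, rose by 2.54 (SE 0.40), Sod2, the mitochondrial superoxide dismutase, by 2.08 (SE 0.27), and Btg1 by 1.11 (SE 0.20). Bcl2l11 was at -0.14 with annotated transcripts alone, which were listed at 0 in NPC library 2 and NPC + IGF-1 library 3, and Btg1 was at 0.95 without MSC library 1. Ccng1 (0.06, and -0.05 without NPC library 2), Ccng2 (0.51) and Tob1 (0.64) did not pass, nor did Sesn1 (0.98), which passed without MSC library 1 (1.03) or NPC library 3 (1.13), without rescaling (1.04) and with a pseudocount of 0.01 (1.00). Of 3 tested Bcl6 partners and targets Prdm1, the repressor Blimp-1 that Bcl6 is known to silence in B cells, rose by 2.69 (SE 0.43), Stat5a rose by 1.13 (SE 0.16) and Hes1 was at 0.35. Prdm1 had 0.173 to 0.546 FPKM in MSCs and 1.86 to 4.80 in NPCs, and was at -0.92 with annotated transcripts alone. Hes1 was called with annotated transcripts alone (1.08), and Stat5a was not with a pseudocount of 1 (0.98).

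Of 6 genes of insulin and IGF receptor signalling, Igf2r, the scavenging receptor for IGF-2, rose by 2.29 (SE 0.16) and Igfbp7 by 1.5 (SE 0.25), and the binding protein Igfbp6 fell by 2.82 (SE 0.48). Pik3cb fell by 1.46, a call lost without MSC library 1 or NPC library 1 (limma adjusted p = 0.0559 and 0.0542), with annotated transcripts alone (0.0923) or with a pseudocount of 1 (-0.60), and Pik3r3 and Rptor (0.40 each) did not pass. In the AMPK list Prkaa2, a catalytic subunit, fell by 2.99 (SE 0.46) and Prkab1 was at 0.18. Of 26 glucocorticoid-responsive genes 6 were named, of which 4 rose and 1 fell, where 11.3% of all genes were called higher and 9.96% lower. Lcn2 led at 7.04 (SE 0.43), followed by Pdk4, with Nfkbia at 2.10 and Gadd45b falling by 1.92. Rgs2, which rose by 1.76 (SE 0.44), was the only gene named by gene ID order. The others came from the study's tables of changed genes. The receptor gene Nr3c1 was at 0.93, and was called without NPC library 3 (1.00), under quantile normalisation (1.08) and with annotated transcripts alone (1.04). Of 28 hypoxia-responsive genes 3 were named, all through the study's tables of changed genes, and 2 were tested in NPCs against MSCs. These were Epas1, which rose by 1.85 (SE 0.21), and Adm, which rose by 1.37 (SE 0.29), where 11.3% of all genes were called higher. Neither was called with annotated transcripts alone (0.46 and 1.48, limma adjusted p = 0.496 and 0.0645), nor Adm with a pseudocount of 1 (0.91).

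**Figure D4:**
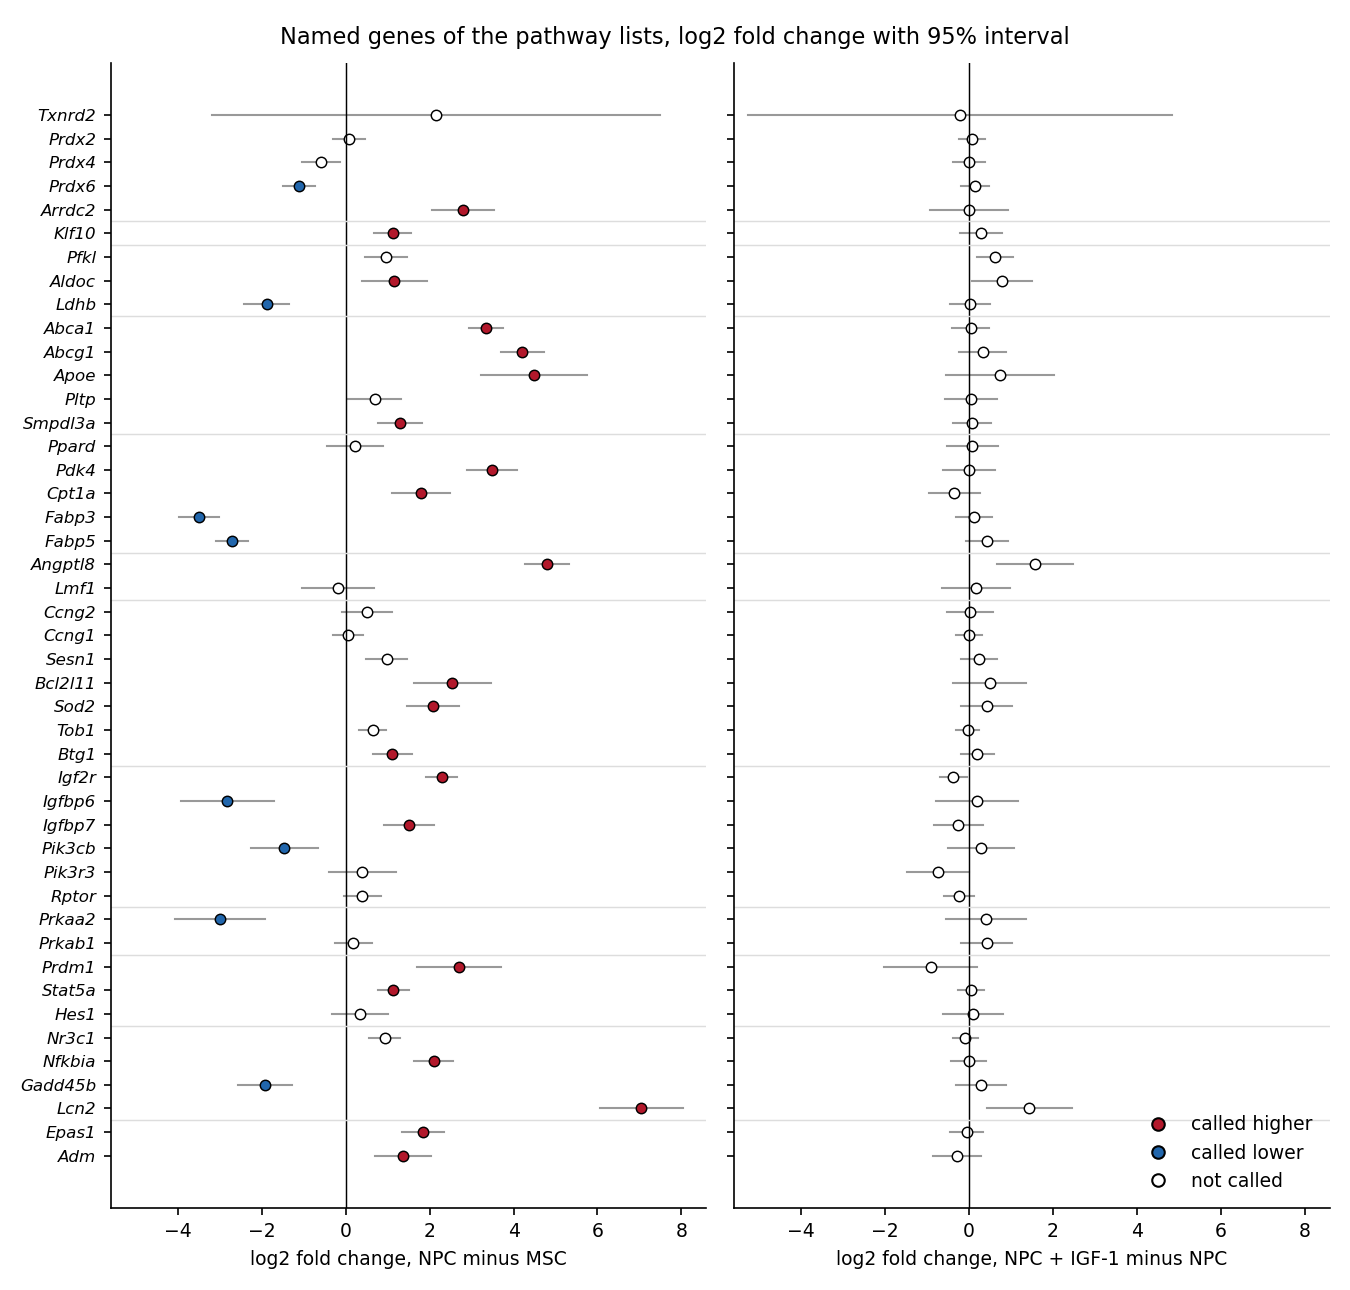
log2 fold change with its 95% interval for the named genes of the pathway lists, NPCs minus MSCs on the left and NPC + IGF-1 minus NPC on the right, with lists separated by lines and filled points for called genes. The LXR targets Abca1, Abcg1, Apoe and Smpdl3a lie between 1.29 and 4.49 on the left, and no point on the right is filled.

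With IGF-1 against MSCs, 25 of 48 list genes rose and 7 fell, where 11.3% of 14197 genes were called higher and 9.69% lower. Between the induced groups limma called 0 of 48 list genes, and 5 (10.4%) had an unadjusted p under 0.05, against 4.46% of all genes. Those 5 were Pfkl (0.63), Aldoc (0.79), Angptl8 (1.57) and Lcn2 (1.43), higher with IGF-1, and Igf2r (-0.37), lower. Among FoxO targets the median difference between the induced groups was 0.20, or 0.01 over those named by gene ID order, and among insulin and IGF signalling genes -0.24, against 0.00 over all genes.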

How the data were processed

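RNA of 9 samples was sequenced, single-end, on a NextSeq500. Per the labels, CASAVA 1.8, bcl2fastq, TopHat, Bowtie2, Cufflinks and Cuffdiff were used to make the deposited transcript files. The sources used here do not name their genome build and annotation release. The published analysis of 6 of the libraries took another route, with STAR and RSEM. Each deposited file lists annotated and assembled transcripts with an FPKM, normalised by the authors to length and depth, and with its confidence interval of 2 SD on either side. The deposited score column was not used. No read counts entered the analysis, so reads behind a value were inferred from its interval.

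FPKM of annotated transcripts and of assembled isoforms was summed per gene. Assembled single-exon transcripts counted only where at least 50% lay within exons. Libraries were scaled by median-of-ratios factors (0.877 to 1.06). Genes with at least 0.1 FPKM in 3 libraries and an annotated transcript of 300 bases or more were kept. log2(FPKM + 0.1) was tested with limma 3.58.1 (R 4.3.3; trend and robust eBayes), two-sided. A gene was called where its p, adjusted by Benjamini-Hochberg, did not exceed 0.05 and its log2 fold change reached 1 in either direction. Fold changes on this scale understate the change of low genes. NPC minus MSC was fitted on 6 libraries, as the study's methods do, and both comparisons with IGF-1 on all 9. The fit was tested on simulated data. Tables were handled in Python 3.11.15 (numpy 2.4.6, pandas 2.3.3, scipy 1.17.1) and plotted with matplotlib 3.10.9. The study's methods describe the MSC and NPC libraries as biological replicates from 3 rats. They also describe cells collected from 3 rats and plated in triplicate for induction, without stating whether these were pooled. The p-values of NPCs against MSCs therefore measure the spread between samples, which need not be that between rats. No source used here ties a replicate number to a rat or gives the origin of the cells with IGF-1, so p-values of that group measure only the spread between its samples. An exact permutation test of 3 against 3 cannot go below p = 0.1.

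The files carry no gene symbols. Symbols came from the supplementary tables of the study, for 2452 gene IDs in the files, 1450 of them from a table in gene ID order and the rest from tables of changed genes. Genes named in the text were the 4 members, the called list genes of largest change, the most abundant uncalled ones, relatives of the 4 genes, and for likeness the 5 named genes of highest Pearson's r. Further list genes were added after their values were seen. The members and lists were chosen with earlier results of these data known. Alternatives covered the pseudocount, the filter, the scaling, the replicate block, the eBayes options, annotated transcripts alone, the libraries fitted and leaving out each library.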

Additional observations from a re-analysis of the deposited data

Results flagged for a closer look

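Unannotated transcripts just upstream of 3 of the 4 genes appeared in induced libraries, while the 3 MSC libraries held none there. They lie outside the gene sums. Within 3 kb upstream of Bcl6, transcripts on the opposite strand covered 280, 312 and 0 bases in NPC libraries 1 to 3 and 262, 813 and 1113 bases with IGF-1. Upstream of Nr1h3, transcripts on its own strand covered 231, 189 and 200 bases in NPCs and 682, 479 and 706 bases with IGF-1. All 6 induced libraries thus held a signal upstream of Nr1h3, but not at 1 shared place. In NPC library 1 it lay from -1154 to -924 bases of the start, and in NPC library 3 from -247 to -48. Upstream of Angptl4, transcripts on its own strand covered 223, 310 and 574 bases in NPCs and 0 in each library with IGF-1, 1 of which (library 2) held 496 bases on the opposite strand. Of 14197 tested genes, 8.95% had such transcripts upstream on their own strand in at least 1 induced library and in no MSC library, and 7.83% had them on the opposite strand. For all 6 induced libraries together the share was 0.909% on the gene's own strand, Nr1h3 among them. The difference between the induced groups was not tested. Induced libraries also held more unannotated transcripts in all, 64618 to 90998 against 28763 to 36570 in MSCs, and the part of this in the upstream signal was not tested.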

How the results depend on the processing

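In comparisons of induced cells with MSCs the 4 genes kept their direction under every alternative run. They were chosen for a large difference in that direction, so nothing is read from its persistence. With a pseudocount of 1 the log2 differences in NPCs and with IGF-1 were 6.22 and 6.52 for Txnip, 6.01 and 5.46 for Angptl4, and 2.94 and 3.23 for Nr1h3, and in NPCs 1.91 for Bcl6; a larger pseudocount by construction shrinks differences from low MSC values. Leaving out 1 library at a time gave, in NPCs and with IGF-1, 6.35 to 7.22 and 6.84 to 7.15 for Txnip, 6.74 to 7.44 and 6.46 to 6.75 for Angptl4, 3.61 to 3.89 and 3.91 to 4.19 for Nr1h3, and 2.03 to 2.18 and 2.01 to 2.30 for Bcl6. Between the induced groups the ranges were -0.20 to 0.68 for Txnip, -0.85 to -0.15 for Angptl4, 0.17 to 0.42 for Nr1h3 and -0.09 to 0.20 for Bcl6, with -0.05 for Bcl6 without NPC library 3. None of the 4 was called there under any alternative run, at a lowest limma adjusted p of 0.891.

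Genes called numbered 2901 in NPCs, 2984 with IGF-1 and 3 between the induced groups. They were 1669 and 1719 in the first and second with a pseudocount of 1, and 1199, 1501 and 19 with annotated transcripts alone. Between the induced groups 5 were called without the filter and 5 with eBayes without trend. Leaving out 1 library gave 2220 to 2794, 2674 to 3001 and 3 to 11. List genes called higher went from 22 to 14 in NPCs and from 25 to 14 with IGF-1 on annotated transcripts alone, and over left-out libraries ranged from 20 to 24 and 23 to 25, with 0 to 1 between the induced groups. With annotated transcripts alone Angptl8 was at -2.56, Bcl2l11 at -0.14, Prdm1 at -0.92 and Rptor at -0.41 in NPCs. Leaving out 1 library turned Ccng1 (-0.05 to 0.12, with -0.02 without MSC library 1), Lmf1 (-0.56 to 0.09) and Prdx2 (-0.05 to 0.15). Where no construction shows it, the cause was not tested.

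Whether replicate numbers pair the libraries was not settled. Deviations of same-numbered libraries correlated at -0.118 to 0.123 across genes, and those of differently numbered libraries at -0.084 to 0.071. Between MSCs and NPCs the same-numbered values were 0.047, 0.123 and 0.052, and the others were -0.084 to 0.036. Such small values over 3 libraries per group can neither show nor exclude a pairing. With the replicate block 2801, 2946 and 3 genes were called, and Angptl4 between the induced groups had an unadjusted limma p of 0.0267 without being called. Symbols for under 80% of every list, 39 to 73 reads behind Angptl4 in MSCs and 3 libraries per group limit these values.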
